A study of Homo sapiens with 3 samples.

Results

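The genes examined here mark the epithelial cells of the bile ducts, the cholangiocytes, and the lineage from which these arise. They were the keratins KRT7, KRT8, KRT18 and KRT19, the transcription factors SOX9, ONECUT1, FOXA2 and GATA6, and the adhesion molecule EPCAM, 9 of 19689 protein-coding genes of GENCODE 44. The rule named them by their role and used no peak values, but earlier results of these data were known when it was set. For each gene, every peak of SBNO1, TAF4 and the IgG control was collected within 1 kb of a protein-coding transcription start site (TSS, of any annotated coding transcript), in the gene body, and within 50 kb of the gene on both sides.

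The peaks came from ChIP-seq of HuCCT1, a human cell line grown from a cancer of the bile ducts (cholangiocarcinoma), with an antibody against SBNO1 (Strawberry Notch 1), against TAF4 (a component of TFIID, the general factor that assembles at promoters) or with control IgG. All 3 libraries came from the same cell line with no further treatment named in the labels, and each stood for 1 pool of at least 3 biological replicates. There were therefore no replicate libraries, no difference between antibodies could be tested, and no p-value is given. The study had stained liver tumors of mice for cytokeratin 7 and 19, the products of the mouse counterparts of KRT7 and KRT19, and the peak lists allow the question of where SBNO1 and TAF4 lie at these and related genes. The lists held 16147 SBNO1, 12763 TAF4 and 1598 IgG peaks, and the depth behind them is unknown. Each peak carried the authors' score, capped at 1000 and without a stated scale, which is used here only as a rank within a list. The libraries hold no RNA, so the labelled cell type could not be checked by expression.

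Keratins of type II (KRT7, KRT8) pair with keratins of type I (KRT18, KRT19) to form the intermediate filaments of simple epithelia. Hepatocytes use the KRT8 and KRT18 pair, whereas KRT7 and KRT19 are classical cholangiocyte markers. In the embryonic liver, the pioneer factor FOXA2 and the zinc finger factor GATA6 open and maintain the hepatic program in the endoderm. ONECUT1 (HNF6) and SOX9 then act in the hepatoblasts around the portal veins that become bile ducts. EPCAM is carried by cholangiocytes and hepatic progenitor cells and is scarce on mature hepatocytes.

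First, the presence of a promoter peak was determined, counting every deposited peak with no filter on score. The study itself counts fewer promoters as bound by SBNO1 and by TAF4, and the filter behind its counts is not stated. A promoter peak here is thus a wider class than a bound promoter of the study. The study also places nearly all TAF4 peaks and most SBNO1 peaks within 1 kb of a TSS. In the whole lists, 6721 TAF4 and 11356 SBNO1 peaks lay beyond 1 kb of a coding TSS, against 6042 and 4791 within it. The peaks away from promoters described below are therefore a class that the TAF4 peaks of the study nearly lack. The reason for this difference was not tested. TAF4 had a peak within 1 kb of a TSS at 8 of the 9 genes, all except ONECUT1, whereas 31.9% of all protein-coding genes had one. SBNO1 had a promoter peak at 6 of 9, namely KRT8, KRT18, KRT19, SOX9, EPCAM and FOXA2, against 25.7% of all genes. IgG had one at 0 of 9, against 1.41% of all genes. The same 6 genes carried both SBNO1 and TAF4, against 22.6% of all genes. KRT7 and GATA6 carried TAF4 without SBNO1, a state of 9.29% of all genes. In the gene body, SBNO1 had a peak at 7 genes, TAF4 at 8 and IgG at 0, against 33.7%, 35.9% and 2.23% of all genes. Within 50 kb, SBNO1 and TAF4 each reached 8 genes, all except ONECUT1, against 62.3% and 61.7% of all genes, and IgG reached 1, KRT19, against 6.76%. Having a promoter peak of both did not mean that the peaks coincided. At KRT8, KRT19, SOX9 and FOXA2 an SBNO1 and a TAF4 peak overlapped at the TSS or just inside the gene, at KRT18 they overlapped only in the first intron, and at EPCAM they lay at different start sites.

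**Figure D1:**
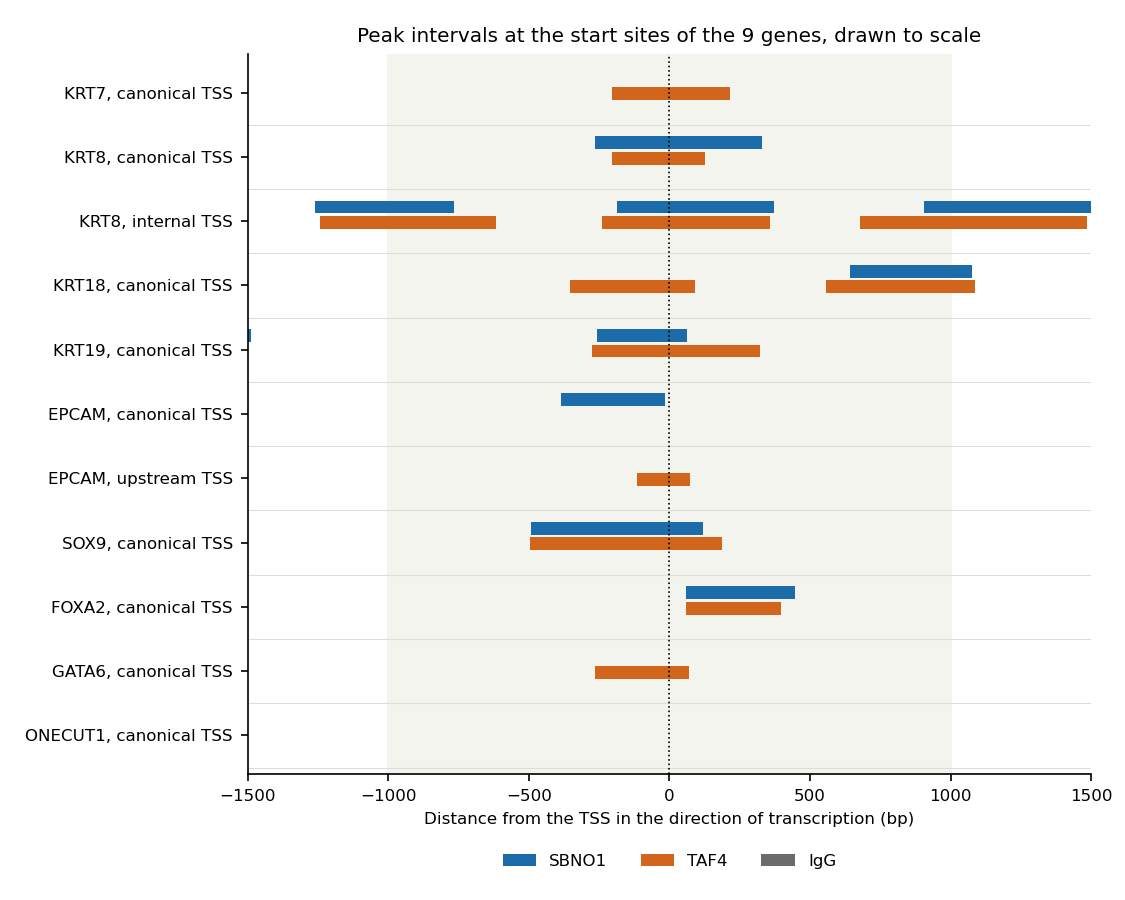
Peaks of SBNO1 (blue) and TAF4 (orange) within 1500 bp of a TSS, drawn to scale along the direction of transcription, with the canonical TSS of each gene and 1 further TSS of KRT8 and of EPCAM; the shaded band is 1 kb on both sides. Both libraries overlap at KRT8, KRT19, SOX9 and FOXA2, TAF4 stands alone at the TSS of KRT7, KRT18 and GATA6, no peak is near ONECUT1, and no IgG peak appears at any of these sites.

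Next, the keratins were examined. KRT19 (chr17:41523617-41528308, minus strand) had overlapping promoter peaks. An SBNO1 peak of 319 bp (chr17:41528247-41528565, score 1000) and a TAF4 peak of 599 bp (chr17:41527985-41528583, score 1000) covered its canonical TSS at 41528308. The SBNO1 peak lay wholly inside the TAF4 peak, which reached further into the gene. Upstream of the gene, 3 further SBNO1 peaks at 1.91, 12.8 and 19.8 kb from the TSS each overlapped a TAF4 peak. These SBNO1 peaks had scores of 943, 902 and 982, and the TAF4 peaks scores of 1000, 1000 and 891. All of them lay between genes. The central 300 bases of the nearest of these shared intervals, which is 564 bp long, are shown because they hold the TEAD, NFY and AP-1 words together, and the AP-1 word is in capitals:

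KRT19, upstream interval on the minus strand, chr17:41530106-41530405: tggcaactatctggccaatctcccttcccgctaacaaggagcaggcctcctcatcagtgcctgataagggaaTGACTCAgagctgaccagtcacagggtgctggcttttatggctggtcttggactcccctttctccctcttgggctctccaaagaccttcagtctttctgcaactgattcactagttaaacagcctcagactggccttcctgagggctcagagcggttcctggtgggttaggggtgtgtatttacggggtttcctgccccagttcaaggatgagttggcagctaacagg

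AP-1 is the dimer of FOS and JUN family proteins, searched here as TGACTCA or its reverse complement TGAGTCA. In all, KRT19 had 8 SBNO1 and 5 TAF4 peaks within 50 kb, and all 5 TAF4 peaks were overlapped by SBNO1. It was also the only gene of the 9 with an IgG peak within 50 kb. This IgG peak (chr17:41521933-41522192, score 859) lay in an intron of the neighbouring keratin gene KRT15, within 1 kb of a TSS of that gene, under an SBNO1 peak (chr17:41521608-41522660, score 897) and a TAF4 peak (chr17:41521554-41522336, score 1000). Without the SBNO1 and TAF4 peaks that overlap IgG, 7 SBNO1 and 4 TAF4 peaks remained near KRT19, the promoter peaks included.

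KRT8 (chr12:52897187-52949954, minus strand) and KRT18 (chr12:52948871-52952906, plus strand) lie head to head on chromosome 12, and their annotated ends overlap. KRT8 has 10 coding TSS, which spread from 52903648 to 52949882. Its canonical TSS at 52905076 was covered by an SBNO1 peak (chr12:52904745-52905340, score 680) and by a TAF4 peak (chr12:52904949-52905281, score 1000). A further SBNO1 peak of 190 bp (chr12:52907213-52907402, score 1000) lay 153 bp from the TSS at 52907060 and had no TAF4 peak.

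Another group of peaks at KRT8 was at an internal TSS at 52926469, in an intron of the longer transcripts. There, 3 SBNO1 peaks stood in a row, each overlapped by a TAF4 peak. The middle peaks covered the TSS, with a score of 962 for SBNO1 (chr12:52926098-52926656) and 950 for TAF4 (chr12:52926113-52926707). On the side of transcription, the SBNO1 peak had a score of 755 (chr12:52924903-52925563) and the TAF4 peak a score of 475 (chr12:52924984-52925793), the lowest TAF4 score among the 9 genes. On the upstream side the scores were 1000 for SBNO1 (chr12:52927235-52927729) and 859 for TAF4 (chr12:52927087-52927713). The 250 bases upstream of this TSS are printed because 187 of them lay under the SBNO1 peak and 238 under the TAF4 peak, and the ETS word CCGGAA or its reverse complement is in capitals:

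KRT8, internal promoter on the minus strand, chr12:52926470-52926719: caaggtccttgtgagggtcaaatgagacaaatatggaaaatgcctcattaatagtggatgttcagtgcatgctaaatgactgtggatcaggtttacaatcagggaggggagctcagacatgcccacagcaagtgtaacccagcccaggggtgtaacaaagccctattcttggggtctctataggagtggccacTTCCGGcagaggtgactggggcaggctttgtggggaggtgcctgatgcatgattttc

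An ETS word was found in 14.5% of 35116 human RefSeq promoters of 250 bases before and 50 after the start (GRCh38). No GGGCGG word, the core of KLF and SP sites, was found in this stretch, whereas 42.6% of RefSeq promoters held one.

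At KRT18, a TAF4 peak (chr12:52948764-52949210, score 1000) covered all 3 TSS, including the canonical one at 52949118. SBNO1 had no peak there. Its nearest peak (chr12:52949759-52950194, score 971) began 641 bp downstream, in the first intron of KRT18, where a second TAF4 peak (chr12:52949674-52950206, score 1000) began 556 bp downstream and contained it. The same interval holds the 5 most upstream TSS of KRT8, from 52949776 to 52949882, so the peaks counted for the promoters of both genes and cannot be given to either. Under a limit of 500 bp, or when a peak counted only for the gene of its nearest TSS, KRT18 no longer had an SBNO1 promoter peak. The intron of KRT18 is known for an enhancer with AP-1 and ETS sites. A stretch of 300 bases of the shared interval, outside untranslated exons, is shown with its AP-1 word in capitals:

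KRT18, first intron on the plus strand, chr12:52949889-52950188: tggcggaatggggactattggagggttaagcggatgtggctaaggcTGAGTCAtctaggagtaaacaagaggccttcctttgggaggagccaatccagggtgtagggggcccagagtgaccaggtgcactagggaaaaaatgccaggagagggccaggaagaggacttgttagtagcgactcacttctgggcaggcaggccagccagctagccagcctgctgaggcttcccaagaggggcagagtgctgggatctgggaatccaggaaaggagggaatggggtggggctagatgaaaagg

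Besides AP-1, this stretch held the words CCAAT (NFY), GGAATG (TEAD), TGTTTAC (FOXA) and TGGGAA (RBPJ) or their reverse complements. The ETS word CCGGAA was found neither in the SBNO1 nor in the TAF4 peak there. Only this exact word was searched, so the search cannot show that ETS sites of other sequence are absent. Further along, between the KRT8 internal TSS and KRT18, 2 SBNO1 peaks with scores of 1000 and 806 (chr12:52945561-52945900 and chr12:52946005-52946352) shared 1 TAF4 peak of 697 bp with a score of 787 (chr12:52945582-52946278). Beyond the other end of KRT8, 2 more pairs of overlapping peaks lay 30.8 and 33.7 kb from the canonical TSS, between genes. Within 50 kb, KRT8 had 12 SBNO1 and 9 TAF4 peaks and KRT18 had 9 and 7, and all of those of KRT18 were also among the peaks of KRT8.

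KRT7 (chr12:52232520-52252186, plus strand), which has 1 coding TSS at 52233243, had many SBNO1 peaks but none at its promoter. A TAF4 peak of 422 bp (chr12:52233039-52233460, score 851) was centred 6 bp from the TSS. The nearest SBNO1 peak ended 2410 bp upstream (chr12:52230404-52230833, score 723), and another lay in an intron (chr12:52243884-52244312, score 636), both without TAF4. With a limit of 3 kb, or with the TSS of noncoding transcripts added, KRT7 also counted as having SBNO1. In all there were 9 SBNO1 and 6 TAF4 peaks within 50 kb, of which 4 SBNO1 peaks overlapped TAF4 and 5 TAF4 peaks overlapped SBNO1. Upstream of the gene, 2 shared pairs stood 17.5 and 15.7 kb from the TSS. The first of these had the highest score of 1000 in both libraries, and 2 AP-1 words (in capitals) occurred in its 197 shared bases:

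KRT7, upstream interval on the plus strand, chr12:52215675-52215871: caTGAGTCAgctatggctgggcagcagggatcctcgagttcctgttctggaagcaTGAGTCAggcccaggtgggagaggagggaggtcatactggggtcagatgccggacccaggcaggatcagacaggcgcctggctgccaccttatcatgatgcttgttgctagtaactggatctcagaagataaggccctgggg

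The other pairs near KRT7 were in KRT86 and KRT81, downstream of it, where an SBNO1 peak of 967 bp (chr12:52280277-52281243, score 1000) covered 2 TAF4 peaks. KRT81 and KRT86 are hair keratin genes with near-identical copies next to each other, so the placement of short reads there is uncertain.

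EPCAM (chr2:47345158-47387601, plus strand) had 1 promoter peak in each of the SBNO1 and TAF4 lists, but at different start sites. The SBNO1 peak (chr2:47368925-47369294, score 548) ended 17 bp before the canonical TSS at 47369311, and no TAF4 peak overlapped it. Its score was among the lower ones of the SBNO1 list, of which 10% of peaks scored the same or less. The TAF4 peak of 190 bp (chr2:47345043-47345232, score 1000) covered the upstream TSS at 47345158, which lies by the start of the noncoding gene EPCAM-DT, and no SBNO1 peak overlapped it. Its centre was 24.2 kb upstream of the canonical TSS. With the canonical TSS alone, EPCAM had no TAF4 promoter peak. With the SBNO1 list shortened by score to the length of the TAF4 list, it had no SBNO1 promoter peak. The only interval shared by both libraries lay between genes, 29.2 kb upstream of the canonical TSS, with scores of 735 for SBNO1 and 610 for TAF4. Its central 300 of 376 bases, printed here, held AP-1 (in capitals) as well as the ONECUT word ATCAAT and the HNF1 word GTTAAT or their reverse complements:

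EPCAM, upstream interval on the plus strand, chr2:47340007-47340306: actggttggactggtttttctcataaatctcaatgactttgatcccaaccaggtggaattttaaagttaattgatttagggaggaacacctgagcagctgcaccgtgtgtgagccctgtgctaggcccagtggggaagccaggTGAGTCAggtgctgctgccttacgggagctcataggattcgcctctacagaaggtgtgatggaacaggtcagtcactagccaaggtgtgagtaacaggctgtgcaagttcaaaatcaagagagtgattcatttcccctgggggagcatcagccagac

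**Figure D2:**
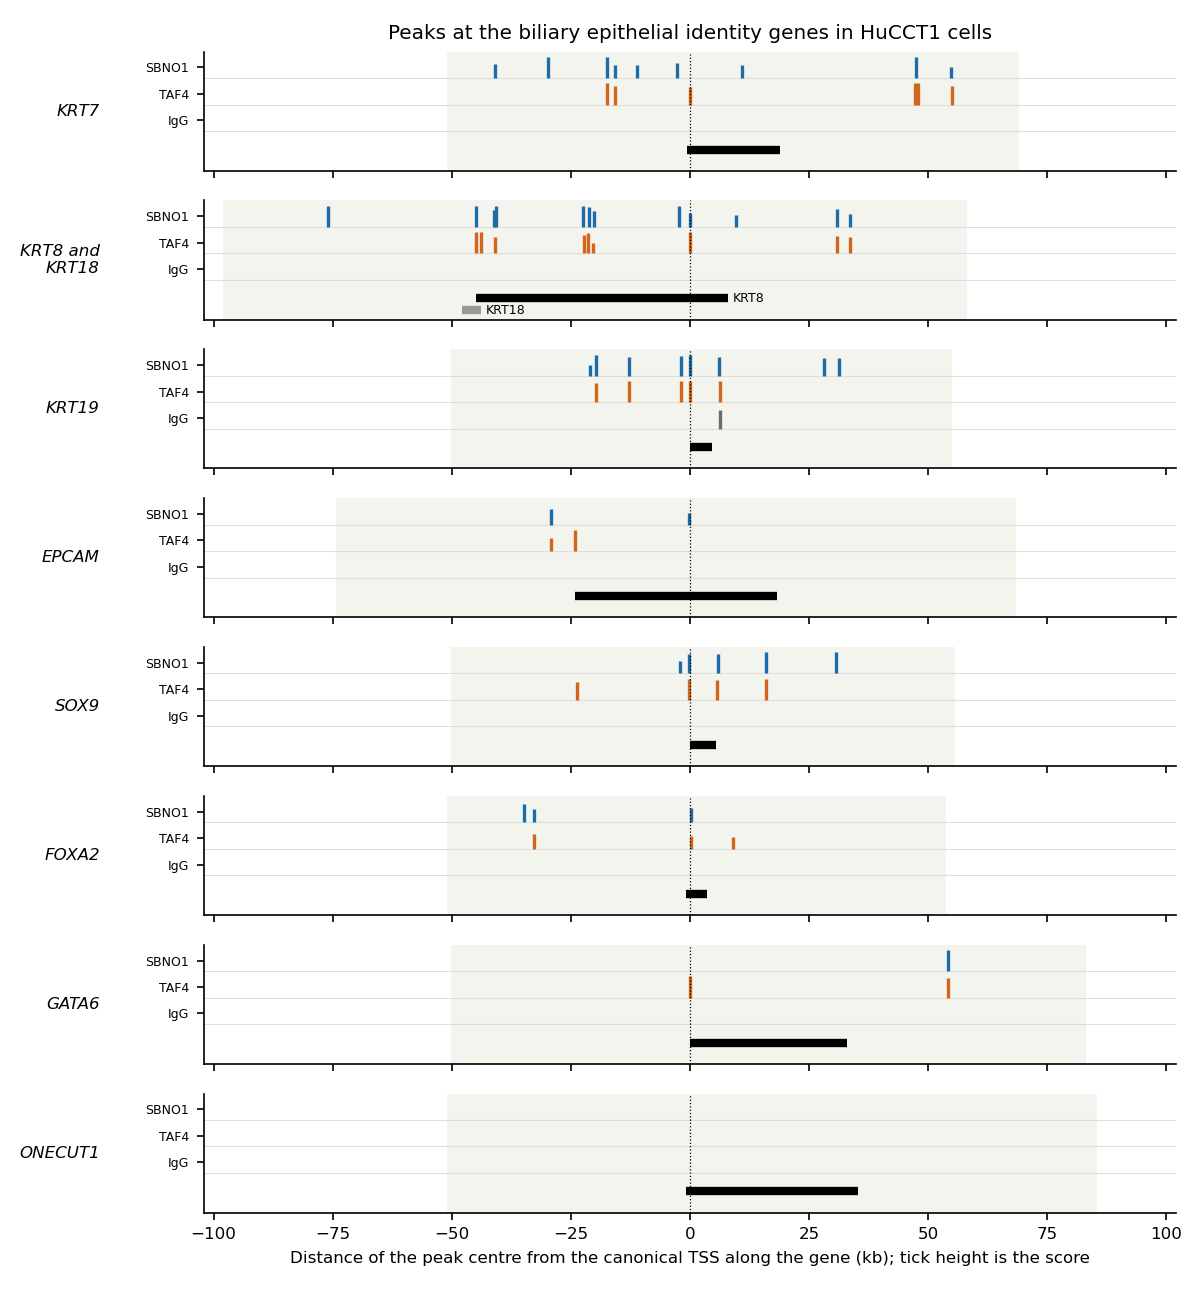
Peak centres of SBNO1 (blue), TAF4 (orange) and IgG (grey) along each gene (black bar) and 50 kb on both sides (shaded), in kb from the canonical TSS in the direction of transcription; the height of a tick is the score, up to 1000. Peaks are dense at KRT7, at KRT8 with KRT18, and at KRT19, where the only IgG peak stands 6.25 kb downstream of the TSS under an SBNO1 and a TAF4 peak, and the window of ONECUT1 is empty.

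Then, the transcription factor genes were examined. SOX9 (chr17:72121020-72126416, plus strand) had an SBNO1 peak of 614 bp (chr17:72120528-72121141, score 933) and a TAF4 peak of 682 bp (chr17:72120526-72121207, score 1000) over its only coding TSS. Their starts differed by 2 bp. The noncoding gene SOX9-AS1 also starts there, so the peaks stand at 2 promoters. Downstream of the gene, shared pairs lay 5.86 and 15.9 kb from the TSS, the latter with the score of 1000 in both libraries. SBNO1 alone had peaks 2.01 kb upstream (score 605) and 30.7 kb downstream (score 1000), and TAF4 alone had 1 peak 23.6 kb upstream (score 853). An AP-1 word was found in the SBNO1 peak 30.7 kb downstream and in the TAF4 peak 23.6 kb upstream. Near the keratins, some shared intervals also lacked AP-1, such as the pair 15.7 kb upstream of KRT7. The pair of SOX9 at 15.9 kb is printed as an interval in which no AP-1 word was found, over its 222 shared bases. CCAAT (NFY, in capitals) was the only word of those searched that occurred:

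SOX9, downstream interval on the plus strand, chr17:72136786-72137007: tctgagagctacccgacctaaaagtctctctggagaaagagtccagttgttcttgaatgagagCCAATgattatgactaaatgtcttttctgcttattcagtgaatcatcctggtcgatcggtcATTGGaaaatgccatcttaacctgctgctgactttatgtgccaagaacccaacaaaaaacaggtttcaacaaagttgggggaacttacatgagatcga

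FOXA2 (chr20:22580998-22585455, minus strand) had overlapping SBNO1 (chr20:22584125-22584514, score 655) and TAF4 (chr20:22584176-22584513, score 620) peaks. These began 58 and 59 bp downstream of the canonical TSS, in an untranslated exon. A second shared pair stood 32.8 kb upstream, with scores of 615 for SBNO1 and 708 for TAF4. All TAF4 peaks of FOXA2 had scores of 708 or less, whereas each other gene with TAF4 peaks had at least 1 at 1000. The upstream pair is shown because it held words of factors of the same lineage, the ONECUT word ATCAAT and the GATA word AGATAA (both in capitals), and no AP-1 word:

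FOXA2, upstream interval on the minus strand, chr20:22617165-22617455: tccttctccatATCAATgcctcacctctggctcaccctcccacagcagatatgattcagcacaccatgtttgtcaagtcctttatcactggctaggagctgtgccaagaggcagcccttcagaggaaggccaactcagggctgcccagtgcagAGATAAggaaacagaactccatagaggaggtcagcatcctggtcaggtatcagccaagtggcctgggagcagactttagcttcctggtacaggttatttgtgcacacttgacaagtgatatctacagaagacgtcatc

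GATA6 (chr18:22169589-22202528, plus strand) had a TAF4 peak of 337 bp (chr18:22169324-22169660, score 1000) over its canonical TSS, where the antisense gene GATA6-AS1 also starts. SBNO1 had no peak there, and its only peak within 50 kb of the gene was 54.2 kb from the TSS. This peak of 159 bp (chr18:22223733-22223891, score 1000) was the narrowest of SBNO1 among the 9 genes and lay wholly inside a TAF4 peak (chr18:22223729-22223950, score 905). The promoter stretch, all 250 bases of which lay under the TAF4 peak, is printed with its ETS word in capitals, and the distal shared interval with its AP-1 word in capitals:

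GATA6, promoter on the plus strand, chr18:22169339-22169588: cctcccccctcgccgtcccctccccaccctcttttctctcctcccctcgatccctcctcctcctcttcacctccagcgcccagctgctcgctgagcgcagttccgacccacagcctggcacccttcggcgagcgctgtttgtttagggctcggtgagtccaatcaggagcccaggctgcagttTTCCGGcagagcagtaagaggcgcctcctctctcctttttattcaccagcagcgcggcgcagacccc

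GATA6, downstream interval on the plus strand, chr18:22223733-22223891: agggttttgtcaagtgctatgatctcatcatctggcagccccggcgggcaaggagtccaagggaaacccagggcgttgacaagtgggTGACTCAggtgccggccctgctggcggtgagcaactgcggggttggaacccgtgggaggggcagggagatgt

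ONECUT1 (chr15:52755053-52791078, minus strand) had no peak of any library within 50 kb. The nearest TAF4 peak lay 75.5 kb from the gene and the nearest SBNO1 peak 466 kb. Its promoter stretch was richer in G and C (76.8%) than those of GATA6 (64.4%) and of the KRT8 internal TSS (50.4%) and held 3 KLF/SP words (in capitals, 2 of them side by side):

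ONECUT1, promoter on the minus strand, chr15:52790337-52790586: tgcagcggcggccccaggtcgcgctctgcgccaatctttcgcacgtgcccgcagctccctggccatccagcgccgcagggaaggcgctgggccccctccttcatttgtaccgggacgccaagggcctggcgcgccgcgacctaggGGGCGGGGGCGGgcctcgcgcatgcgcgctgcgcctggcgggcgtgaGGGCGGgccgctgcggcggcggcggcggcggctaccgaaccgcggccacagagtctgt

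Promoter sequences were in the RefSeq table for 3 of the 9 genes, KRT8, ONECUT1 and GATA6.

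To see how many peaks lay around each gene, the counts within 50 kb were set beside those of all protein-coding genes. The median over the 9 genes was 5 SBNO1 and 4 TAF4 peaks, and over all genes it was 1 and 1. KRT8 had 12 SBNO1 peaks, and 0.452% of all genes had at least as many. For KRT7 and KRT18, with 9 SBNO1 peaks each, this share was 1.78%, and for KRT19, with 8, it was 2.61%. SOX9 had 5 SBNO1 peaks (9.18%), FOXA2 had 3 (23.3%), EPCAM had 2 (38.2%), GATA6 had 1 (62.3%) and ONECUT1 had 0. The order was nearly the same for TAF4, with 9 peaks at KRT8 (1.24%), 7 at KRT18 (2.76%), 6 at KRT7 (4.67%), 5 at KRT19 (7.42%), 4 at SOX9 (12.8%), 3 at FOXA2 (21.7%), 2 each at EPCAM and GATA6 (37.4%) and 0 at ONECUT1. Thus, among the 9 genes, the 4 keratin genes took the first places in both libraries. The 3 transcription factor genes other than SOX9 had counts that at least 21.7% of all genes reached. KRT8 and KRT18 are not independent in this order or in the medians, since all peaks of KRT18 are also peaks of KRT8. Neighbours in this order differed by 0 to 3 peaks, and there was no replicate to measure the spread of such a count. In a window of 50 kb around the canonical TSS, which does not depend on gene length, the medians were again 5 and 4, against 1 and 1 for all genes.

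**Figure D3:**
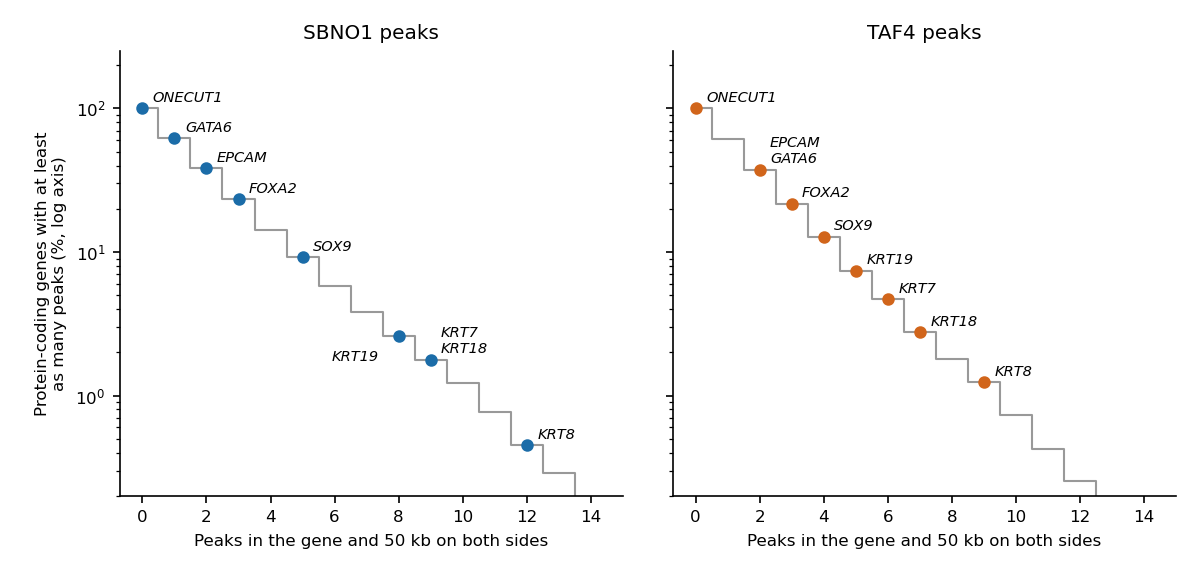
Share of protein-coding genes (percent, log axis) that have at least a given number of SBNO1 (left) or TAF4 (right) peaks in the gene and 50 kb on both sides (grey line), with the 9 genes marked. KRT8 lies furthest to the right in both panels, with 12 and 9 peaks, and ONECUT1 at 0.

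Because peaks were not spread evenly over the genome, the density in the 5 Mb on both sides of each gene was also measured. The SBNO1 list held 5.23 peaks per Mb over the genome. It held 23.2 per Mb around KRT19, 16.8 around SOX9, 13.1 around KRT8 and 13 around KRT7, and only 1.30 around GATA6 and 2.99 around ONECUT1. Chromosome 17, with KRT19 and SOX9, had the highest density of the 24 chromosomes (12.9 per Mb) and chromosome 18, with GATA6, the lowest (1.14 per Mb), and TAF4 ranked them likewise, at 10.9 and 0.958 per Mb. The 5 genes with the most peaks, the keratins and SOX9, all stood in regions with at least 13 SBNO1 peaks per Mb. The part of this regional density in the counts was not tested.

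Next, the sharing of peaks was counted over the 9 genes, each peak taken once. There were 40 SBNO1 and 31 TAF4 peaks and 1 IgG peak. Of the SBNO1 peaks, 25 of 40 (62.5%, 95% Clopper-Pearson interval 45.8% to 77.3%) overlapped a TAF4 peak by at least 1 bp, and in the whole SBNO1 list 59.7% did. Of the TAF4 peaks, 25 of 31 (80.6%, 62.5% to 92.5%) overlapped an SBNO1 peak, against 75.2% of the whole TAF4 list. Both shares were near those of the lists, whose values lay inside the intervals. The intervals cover counting error only and treat peaks as independent, although many peaks stand together at the same few genes. An IgG peak overlapped 1 of the 40 SBNO1 peaks (2.5%, against 8.57% of the list) and 1 of the 31 TAF4 peaks (3.23%, against 10.9%), at KRT15 in each case. Away from coding TSS, 16 of 28 SBNO1 peaks (57.1%, against 49.5% of the list) and 16 of 18 TAF4 peaks (88.9%, against 83.2%) were shared. Within 1 kb of a coding TSS it was 9 of 12 SBNO1 peaks (75%, against 83.8%) and 9 of 13 TAF4 peaks (69.2%, against 66.3%). Overlapping peaks formed 26 pairs, whose centres differed by a median of 59 bp and by 286 bp at most, and 17 pairs had centres within 100 bp of each other. SBNO1 was the wider peak in 16 pairs and TAF4 in 10.

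The peaks of the 9 genes were of ordinary size and rank for their lists. SBNO1 peaks had a median width of 430 bp (159 to 1053 bp) and a median score of 864 (512 to 1000), against 397 bp and 869 for the whole list. TAF4 peaks had a median width of 395 bp (190 to 810 bp) and a median score of 921 (475 to 1000), against 400 bp and 935. The highest score of 1000 was reached by 11 of 40 SBNO1 peaks (27.5%, against 34.6% of the list) and 14 of 31 TAF4 peaks (45.2%, against 43%). SBNO1 peaks at 1000 were narrower than the others, with a median of 306 against 436 bp, as they were in the whole list (315 against 429 bp). SBNO1 peaks that overlapped TAF4 had a median score of 933 and those that did not 723, and in the whole list the values were 921 and 801. For TAF4 the medians were 921 with and 926 without an SBNO1 peak near the 9 genes, and 960 and 860 in the whole list.

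**Figure D4:**
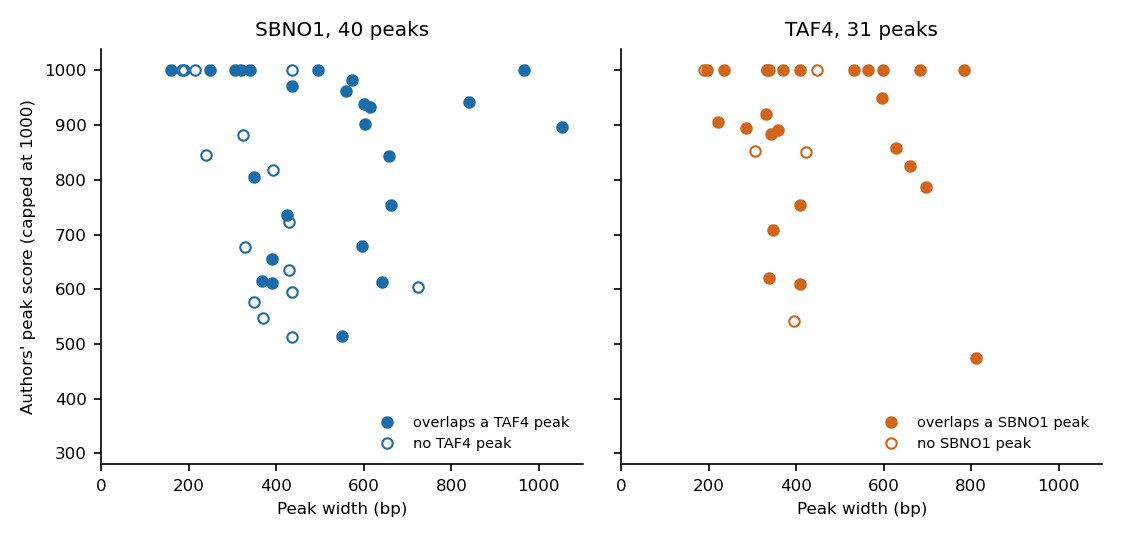
Width in bp against the authors' score, capped at 1000, for the 40 SBNO1 (left) and 31 TAF4 (right) peaks within 50 kb of the 9 genes; filled points overlap a peak of the other protein by at least 1 bp and open points do not. Of the SBNO1 peaks without TAF4, most score below the median of 933 of those with it, and 6 TAF4 peaks have no SBNO1 peak.

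To describe the DNA under the peaks, 11 short words were searched as exact matches on both strands in the central 200 bp of each peak, namely the words given above for AP-1, ETS, KLF/SP, NFY, TEAD, FOXA, GATA, ONECUT, RBPJ and HNF1 and, for the TATA box, TATAAA. For ONECUT, ATCGAT was also counted. No word contains another. AP-1 was present in 10 of 40 SBNO1 peaks (25%, against 27.8% of the list) and in 11 of 31 TAF4 peaks (35.5%, against 19.3%). Over the whole peak the SBNO1 share was 50%, against 38.3% of the list, so its direction against the list turned with the window. It also differed by position. Within 1 kb of a coding TSS, 2 of 12 SBNO1 peaks (16.7%, against 7.12%) and 3 of 13 TAF4 peaks (23.1%, against 4.97%) held AP-1. Elsewhere it was 8 of 28 (28.6%, against 36.6%) and 8 of 18 (44.4%, against 32.3%). Over the whole peak, SBNO1 had 50% near a TSS (against 12.1%) and 50% elsewhere (against 49.4%). Apart from FOXA2, each gene with peaks had an SBNO1 or TAF4 peak with AP-1. The share of all genes with such a peak was not computed. A match also becomes likelier with more peaks, and KRT8 and KRT18 have peaks in common. TEAD, the word bound by the partners of YAP1, was found in 7 of 12 SBNO1 peaks close to a coding TSS (1 kb or less, 58.3%), and in 10.1% of all SBNO1 peaks so placed. For TAF4 it was in 5 of 13 (38.5%), against 8.85%. These 7 SBNO1 peaks were 4 at KRT8 (1 of which is the KRT18 intron peak), the promoter peaks of KRT19 and SOX9, and the KRT15 peak that IgG shares. Away from TSS, TEAD was in 2 of 28 SBNO1 peaks (7.14%, against 23.6%), but over the whole peak in 10 of 28 (35.7%, against 38%). RBPJ, the word of the DNA-binding partner of Notch, was in 4 of 40 SBNO1 peaks (10%, against 20.6%) and in 0 of the 12 near a TSS (against 18.1%). Over the whole peak these counts were 12 of 40 (30%, against 37.5%) and 2 of 12 (16.7%, against 35.6%). Near a TSS, ETS was in 0 of 12 SBNO1 peaks (against 25%) and 1 of 13 TAF4 peaks (7.69%, against 24.6%). KLF/SP was in 4 of 12 (33.3%, against 53.4%) and 4 of 13 (30.8%, against 59.6%). Over the whole peak, both words were also below the list share in both libraries near a TSS. Shares of the remaining words are not given here. Peaks of 1 gene share their region, so these counts are descriptions of few loci, and a match is not a bound site.

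Finally, the 9 genes were set beside related lists. Of 25 other biliary and ductal genes, 11 had an SBNO1 and 14 a TAF4 promoter peak (44% and 56%), and 1, HES1, had an IgG peak. Both proteins were at 10 of them, including the tight junction gene CLDN4; the anion exchanger SLC4A2, through which cholangiocytes secrete bicarbonate; the Notch target HES1 and the Notch ligand JAG1; YAP1; KRT17; and the epithelial regulators ELF3, ESRP1 and GRHL2. CDH1, SOX4 and TEAD1 were among those with TAF4 only, the state of KRT7 and GATA6, and MUC1 had SBNO1 only. Others of this list, among them CFTR, SPP1, AQP1, PROM1, CD24, TM4SF4 and ANXA4, had no promoter peak of either protein. Of 25 hepatocyte genes such as ALB and APOA1, 0 had an SBNO1 and 1 a TAF4 promoter peak, SERPINA1. Of 19 genes of other liver cell types, 3 had both, the macrophage gene CD68, the collagen gene COL1A1 and the mesenchymal factor ZEB1. Of 18 endodermal and foregut factors, 4 of which are among the 9 genes, 5 had SBNO1 (27.8%) and 7 TAF4 (38.9%). These shares were near the 25.7% and 31.9% of all protein-coding genes. FOXA1, FOXA3 and the members FOXA2 and SOX9 had both.

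Within the keratin clusters, most genes had no promoter peak. Of the 24 other keratin genes on chromosome 12, 1 had an SBNO1 promoter peak, KRT80 next to KRT7, and 0 had a TAF4 promoter peak, although KRT7, KRT8 and KRT18 on the same chromosome all had TAF4. Of the 27 others on chromosome 17, 3 had both, KRT15, KRT16 and KRT17, and KRT15 had IgG as well. KRT16 and KRT17 were thus the other keratins with the promoter state of KRT8, KRT18 and KRT19 in all 3 libraries, and no other keratin had the state of KRT7. KRT16 and KRT17 belong to a family with near-identical copies, so their peaks are uncertain. Other keratins lie in the dense regions described above, with a median of 2 SBNO1 peaks within 50 kb on chromosome 12 and 5 on chromosome 17. KRT13 and KRT15 had 9 each, as many as KRT7 and KRT18. KRT9, KRT23, KRT80 and KRT86 had 8 each, as many as KRT19. KRT80 and KRT86 are neighbours of KRT7, and KRT9, KRT13 and KRT15 are neighbours of KRT19. Their windows overlap those of the members, so these counts share peaks and are not independent. Whether promoter states differed between lists beyond chance was not tested.

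**Figure D5:**
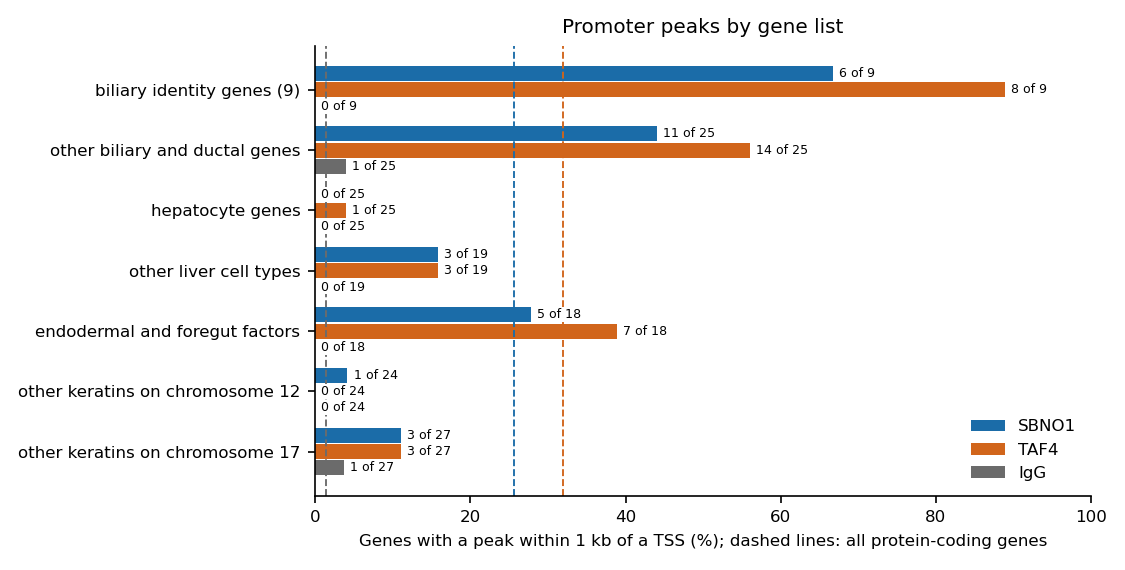
Share of genes (percent) with a peak within 1 kb of a TSS in the SBNO1 (blue), TAF4 (orange) and IgG (grey) lists, for the 9 genes and 6 comparison lists, with the number of genes at each bar; dashed lines mark all protein-coding genes (25.7%, 31.9% and 1.41%). The hepatocyte list shows 0 SBNO1 and 1 TAF4 gene of 25, and the 9 genes 6 and 8.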

How the data were processed

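ChIP-seq peaks of SBNO1, TAF4 and IgG in HuCCT1 cells were analysed, 1 list per antibody. Per the study's methods, the authors pooled at least 3 biological replicates per antibody, sequenced 50-base single-end reads, trimmed them with ktrim, aligned them with bowtie2 to GRCh38 and annotated peaks with ChIPseeker. The peak caller is normR in the methods and Genrich 0.6.1 in the submitters' processing notes, which also name Bowtie2 2.5.4 and GRCh38.p14. The threshold, the handling of duplicate reads and the use of IgG in the calls were not given in the sources used here. The deposited score is the authors' value and was only ranked within a list. No read numbers were given, so the depth is unknown.

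Coding TSS (78567 sites of 19689 genes) came from GENCODE 44. Distances were measured from the nearest peak edge. All genes within reach of a peak were credited with it, and peaks were shared when they overlapped by 1 bp. Coordinates are 1-based on GRCh38. No test was possible with 1 library per antibody. Scripts (Python 3.11.15, pandas 2.3.3, numpy 2.4.6, scipy 1.17.1) were tested on simulated data. The genes and the comparison lists were chosen with earlier results of these data known. Every peak at a promoter or in a gene body was considered for naming, with the nearest and highest-scoring peaks elsewhere; of the lists, genes with SBNO1 and TAF4 both. Genes with 1 protein only or with neither, and further distal peaks, were named after their values were seen. Alternatives were other distances, TSS sets, score filters, windows, overlap rules and motif windows. Some genes of the comparison lists are counted but not reported by name here.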

Additional observations from a re-analysis of the deposited data

How the results depend on the processing

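Of 54 values recomputed under alternatives, 49 stayed within their interval or within 1.5 times the first count, and 5 moved. With peaks at the highest score alone, the genes with an SBNO1 promoter peak fell to 2 (KRT8 and KRT19). With peaks at or above the median score, the peaks within 50 kb fell to 20 for SBNO1 and 15 for TAF4, which follows from the filter itself. The share of SBNO1 peaks with AP-1 was 50% over the whole peak and 47.5% in a window of 400 bp, against 38.3% and 36.2% of the list. No paired analysis was possible because there was a single library for each antibody, and none could be left out. The number of libraries and the unknown depth limit every count, and the absence of a peak is the absence of a call.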
